A study of Mus musculus with 6 samples.

Results

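Collagen-modifying and crosslinking enzymes were examined in liver RNA-seq data through 10 genes, chosen by symbol for their known roles and found in the count table by their Ensembl IDs. The choice was made with earlier results of these data known. They are the lysyl oxidases *Lox*, *Loxl1*, *Loxl2*, *Loxl3* and *Loxl4*, the prolyl 4-hydroxylase alpha subunits *P4ha1*, *P4ha2* and *P4ha3*, the lysyl hydroxylase *Plod2* and the procollagen C-proteinase enhancer *Pcolce*. All 10 were among the 49671 genes of the table, and all 10 passed the filter on low counts that left 16089 genes for testing. The libraries came from whole livers of 6 male C57BL/6J mice carrying the floxed SHMT2 allele on both chromosomes. In 3 of them (SHMT2 HKO, labelled KO) an Albumin-Cre transgene, which is active in hepatocytes, deleted the allele, and 3 without Cre (SHMT2 fl/fl, labelled WT) were the controls. SHMT2 is the mitochondrial enzyme that splits serine into glycine and a 1-carbon unit. All 6 mice ate the AMLN diet, rich in fat, fructose and cholesterol, which causes steatohepatitis with fibrosis, from 4 weeks of age for 18 weeks, and were fasted before harvest at 22 weeks. Cre was not directed at stellate cells or portal fibroblasts, the main collagen-producing cells of the liver.

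Collagen chains are modified while they are made. Prolyl 4-hydroxylases, each an alpha subunit paired with the shared beta subunit P4hb, hydroxylate prolines so that the triple helix is stable at body temperature, and lysyl hydroxylases hydroxylate lysines that later take part in crosslinks. After secretion the propeptides are cut off, with Pcolce speeding the removal at the C-terminal end, and lysyl oxidases, which need copper, oxidise lysines in collagen and elastin so that neighbouring chains become covalently linked. In scarred liver these crosslinks make the matrix stiff and slow to be degraded.

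*Shmt2* fell from 99.1 ± 8.50 to 24.1 ± 4.51 CPM (mean ± SD, n = 3; edgeR adjusted p = 0.000639), where CPM is the library-scaled count with TMM factors, so the target gene followed the labels in all 6 mice. Gene counts ranged from 23090837 to 34089722 per library, and 3 counts, taken as the limit of detection, were 0.0733 to 0.152 CPM. The livers differed in marker genes of several cell types. Of 10 stellate cell and myofibroblast markers, 4 were lower in SHMT2 HKO livers (*Pdgfra*, *Pdgfrb*, *Hand2*, *Des*) and 1 was higher (*Reln*), and their summed level was 324 to 347 CPM in SHMT2 fl/fl and 167 to 291 CPM in SHMT2 HKO mice. Portal fibroblast markers were lower for 5 of 6 genes (sums of 99.7 to 129 and 22.4 to 33.0 CPM), cholangiocyte markers for 6 of 6 (955 to 1186 and 128 to 245 CPM) and lymphocyte markers for 4 of 8 (18.3 to 22.5 and 5.90 to 8.18 CPM). Endothelial markers were higher for 2 of 8 (182 to 210 and 247 to 291 CPM), hepatocyte markers for 2 of 8 (sums from 49867 to 60601 and from 60384 to 90201 CPM), macrophage markers were lower for 3 and higher for 2 of 8 (285 to 431 and 360 to 453 CPM), and smooth muscle markers lower for 1 of 4 (27.2 to 30.1 and 15.9 to 19.9 CPM). None of the 5 tested mesothelial markers passed the test (9.54 to 25.3 and 7.35 to 15.2 CPM). No stellate cell or portal fibroblast marker was at 0 in any library. The stellate cell, portal fibroblast, cholangiocyte, lymphocyte and smooth muscle sums were thus lower in every SHMT2 HKO mouse. The endothelial sum was higher, and the hepatocyte, macrophage and mesothelial sums overlapped. The part of these differences in the values below was not tested. In bulk tissue, fewer cells of a type and less RNA per cell cannot be told apart.

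Of the 10 enzyme genes, 6 were lower in SHMT2 HKO livers (*Loxl1*, *Lox*, *Plod2*, *Pcolce*, *Loxl3*, *Loxl2*), 0 were higher and 4 did not pass the test (edgeR quasi-likelihood test, Benjamini-Hochberg adjusted p under 0.05 over all genes tested). Over all genes tested, 16.5% were called lower and 12.5% higher. As the 10 genes were chosen with earlier results of these data known, comparisons with all genes tested are description only. The median log2 fold change was -1.27 over the 10 genes and 0.03 over all genes tested. In 7 of the 10 every SHMT2 HKO value lay below every SHMT2 fl/fl value, and in 0 above, against 25% and 21.9% of all genes tested. The 7 include *P4ha3*, which was not called and passed the filter on low counts only through the SHMT2 fl/fl mice. Its separation is therefore given no weight. With SHMT2 fl/fl mouse 1 left out only 3 of the 10 passed (*Loxl1*, *Plod2* and *Pcolce*), since *Lox*, *Loxl2* and *Loxl3* came to adjusted p-values of 0.0563, 0.0618 and 0.0576 by the same edgeR test.

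**Figure D1:**
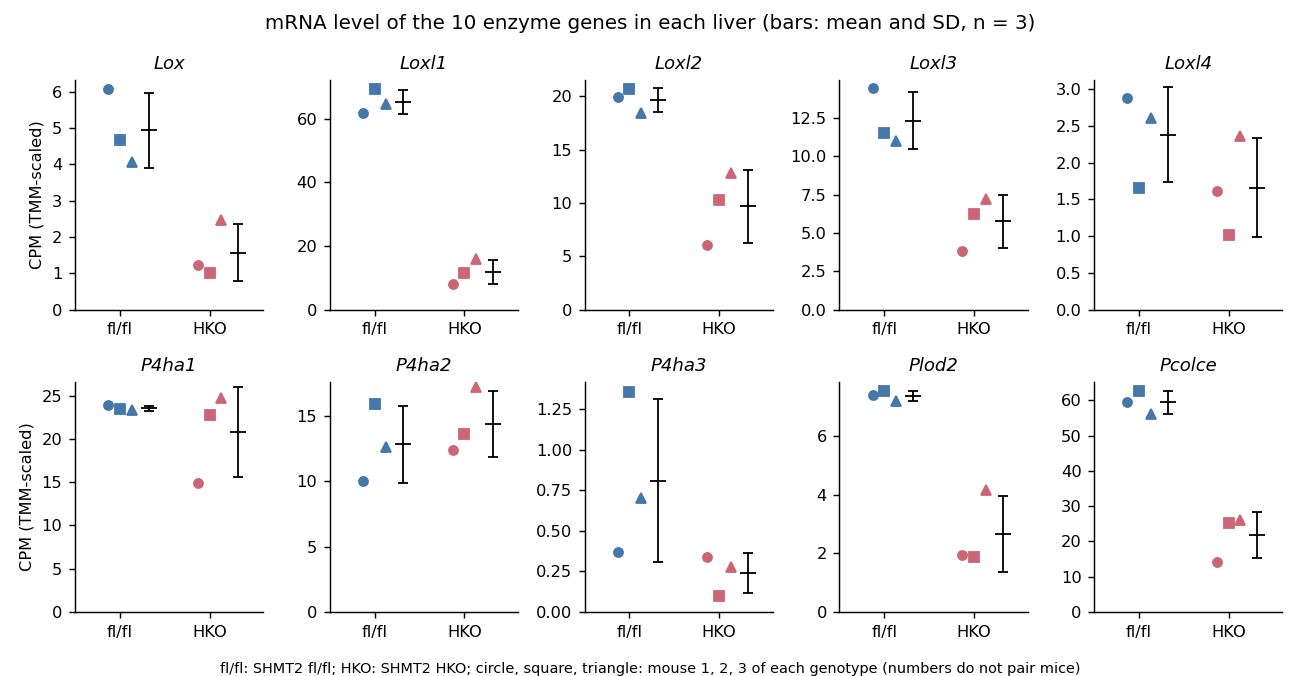
Level of each enzyme gene in each mouse, in CPM with TMM-scaled library sizes on the vertical axis, by genotype on the horizontal axis. Points are mice, and bars give the mean and SD of 3 mice. *Loxl1* lies between 61.7 and 69.2 CPM in SHMT2 fl/fl and between 8.06 and 15.8 CPM in SHMT2 HKO mice, while *Loxl4*, *P4ha1* and *P4ha2* overlap between genotypes.

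*Loxl1*, best known for crosslinking elastin, showed the largest decrease of the family. Its level was 61.7, 69.2 and 64.4 CPM in SHMT2 fl/fl mice 1 to 3 and 8.06, 11.6 and 15.8 CPM in SHMT2 HKO mice 1 to 3. The groups are widely separated, and the highest SHMT2 HKO value is far under the lowest SHMT2 fl/fl value. The difference was 5.50-fold, a log2 fold change of -2.46 (SE 0.23, edgeR adjusted p = 0.000852). *Loxl1* lies on chromosome 9 (GRCm38 58287738 to 58313186, minus strand), and no other annotated gene shares its exonic bases.

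*Lox*, the founding member of the family, on chromosome 18, was measured at 6.06, 4.66 and 4.07 CPM in SHMT2 fl/fl and 1.23, 1.01 and 2.48 CPM in SHMT2 HKO mice. Mouse 3 is the highest of the SHMT2 HKO group and still under all controls. The log2 fold change was -1.63 (SE 0.36, edgeR adjusted p = 0.0127).

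*Loxl2*, which acts on collagen IV of basement membranes among other substrates, was at 20.0, 20.6 and 18.4 CPM in SHMT2 fl/fl and 6.02, 10.3 and 12.8 CPM in SHMT2 HKO mice. The controls are close together and the SHMT2 HKO mice spread over a wider range, without overlap. The log2 fold change was -1.02 (SE 0.25, edgeR adjusted p = 0.0184), but the adjusted p rose to 0.0620 without SHMT2 fl/fl mouse 2, to 0.0540 without SHMT2 fl/fl mouse 3 and to 0.0533 without SHMT2 HKO mouse 2, as well as to 0.0618 without SHMT2 fl/fl mouse 1. Of the distinct stretches of 50 bases in *Loxl2* transcripts, 42.9% also occur in *Gm21451*, an annotated pseudogene on the same chromosome as *Loxl2* (chromosome 14, GRCm38 69609068 to 69695834, plus strand), so the count of *Loxl2* depends on how reads fitting both were treated and is uncertain. *Gm21451* itself had 19, 11 and 6 counts in SHMT2 fl/fl and 7, 5 and 6 in SHMT2 HKO mice. *Gm16867*, which shares 3.85% of these stretches, had 30, 15 and 14 counts in SHMT2 fl/fl and 11, 26 and 17 in SHMT2 HKO mice.

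*Loxl3*, another crosslinking member, was at 14.5, 11.5 and 10.98 CPM in SHMT2 fl/fl and 3.86, 6.22 and 7.20 CPM in SHMT2 HKO mice. No values overlapped, and the log2 fold change was -1.10 (SE 0.24, edgeR adjusted p = 0.0130). It shares 535 exonic bases with *Htra2* on the opposite strand, and the sources used here do not say whether strand was used in counting. *Htra2* averaged 27.2 and 24.3 CPM in the 2 genotypes.

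*Loxl4*, another member of the family, was at 2.88, 1.65 and 2.61 CPM in SHMT2 fl/fl and 1.61, 1.01 and 2.36 CPM in SHMT2 HKO mice. The groups overlap, and the log2 fold change of -0.52 (SE 0.37, edgeR adjusted p = 0.334) did not pass the test.

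Levels of different genes were compared only as RPKM, that is CPM divided by exonic length in kilobases. The counts of *Loxl2* and *Loxl3* are uncertain because of the sequence shared with *Gm21451* and *Htra2*. This uncertainty passes to the lysyl oxidase sum, to all shares of it and to their places in the order of levels below. Summed over the 5 lysyl oxidases, the level was 27.7 ± 0.939 RPKM in SHMT2 fl/fl and 7.35 ± 2.39 RPKM in SHMT2 HKO mice (n = 3 each), 3.76-fold lower. *Loxl1* made up 68.0%, 73.2% and 72.9% of that sum in SHMT2 fl/fl mice and 48.5%, 48.7% and 48.9% in SHMT2 HKO mice. Its share was thus lower in all 3 SHMT2 HKO livers and nearly the same among them. The shares of *Loxl2* (13.2% to 24.2%), *Loxl3* (9.69% to 17.1%) and *Loxl4* (2.06% to 5.54%) had higher means in SHMT2 HKO mice without overlap, whereas that of *Lox* (3.73% and 4.44%) overlapped. Shares are parts of the same sum, so a lower *Loxl1* share makes the others larger together. They are not separate results, and the mean levels of *Loxl2*, *Loxl3* and *Loxl4* themselves were lower in SHMT2 HKO mice. For each of the 4 shares that did not overlap the exact permutation test (two-sided) gave p = 0.1, the smallest that 3 against 3 mice allow, and 0.2 after Benjamini-Hochberg adjustment over 8 shares.

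**Figure D2:**
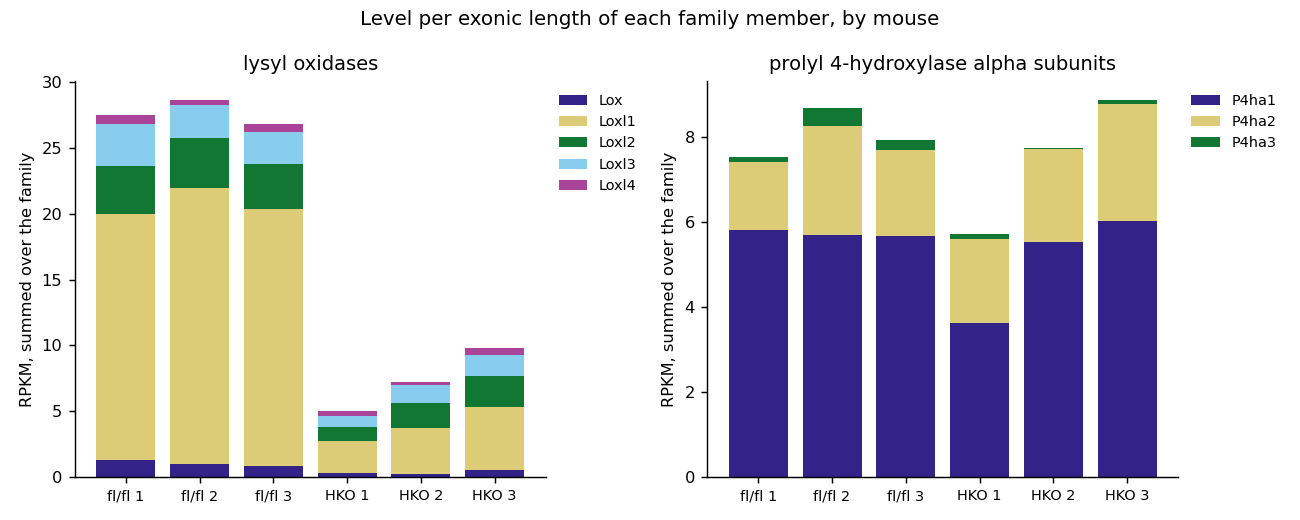
Level per exonic length (RPKM, vertical axis from 0) of each lysyl oxidase (left) and prolyl 4-hydroxylase alpha subunit (right), stacked for each of the 6 mice (horizontal axis). The lysyl oxidase stacks reach 26.8 to 28.7 RPKM in SHMT2 fl/fl and 5.03 to 9.81 RPKM in SHMT2 HKO mice, with *Loxl1* the tallest segment in every mouse, while the alpha subunit stacks overlap between genotypes.

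None of the 3 prolyl 4-hydroxylase alpha subunits passed the test. *P4ha1*, the main catalytic subunit in most tissues, was at 23.9, 23.5 and 23.3 CPM in SHMT2 fl/fl and 14.9, 22.7 and 24.8 CPM in SHMT2 HKO mice. Only SHMT2 HKO mouse 1 is low, and the other two sit around the control values. The log2 fold change was -0.18 (SE 0.19, edgeR adjusted p = 0.504), and 0.02 without SHMT2 HKO mouse 1.

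*P4ha2*, the second alpha subunit, was at 10.02, 15.9 and 12.6 CPM in SHMT2 fl/fl and 12.4, 13.6 and 17.2 CPM in SHMT2 HKO mice, with the 2 ranges largely overlapping. Its log2 fold change was 0.17 (SE 0.21, edgeR adjusted p = 0.572), and it turned to -0.23 without TMM scaling and to -0.43 when libraries were scaled to the ERCC spike-in RNAs. These scalings moved the median of all genes by about as much as they moved *P4ha2*, to -0.40 and -0.69. The standard error of *P4ha2* was 0.25 without TMM and 0.54 with ERCC scaling. ERCC RNAs made up 1.47%, 1.84% and 1.42% of counts in SHMT2 fl/fl mice 1 to 3. In SHMT2 HKO mice 1 to 3 they made up 2.75%, 2.31% and 1.35%, so mouse 3 was below all controls.

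*P4ha3*, the least abundant alpha subunit, had only 15, 36 and 27 counts in SHMT2 fl/fl and 8, 2 and 7 in SHMT2 HKO mice. The 2 counts of SHMT2 HKO mouse 2 are under the detection limit of 3 counts. The gene passed the filter on low counts only through the SHMT2 fl/fl mice. All SHMT2 HKO values were lower, by a narrow margin between SHMT2 fl/fl mouse 1 (0.366 CPM) and SHMT2 HKO mouse 1 (0.339 CPM). The log2 fold change of -1.69 (SE 0.63, edgeR adjusted p = 0.0773) did not pass at this depth. It passed without TMM scaling (-2.09, adjusted p = 0.0346) and with ERCC scaling (-2.41, adjusted p = 0.00968). The 3 alpha subunits summed to 8.04 ± 0.587 RPKM in SHMT2 fl/fl and 7.44 ± 1.601 RPKM in SHMT2 HKO mice, and *P4ha1* held 71.5% and 67.5% of the sums, with overlap between genotypes.

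*Plod2*, which hydroxylates lysines in the telopeptides at the ends of collagen chains and so sets the kind of crosslink formed, was at 7.38, 7.52 and 7.20 CPM in SHMT2 fl/fl and 1.95, 1.87 and 4.17 CPM in SHMT2 HKO mice. The 3 controls are nearly equal, and SHMT2 HKO mouse 3 lies between them and the other two of its genotype. The log2 fold change was -1.46 (SE 0.32, edgeR adjusted p = 0.0118). *Plod2* lies on chromosome 9 (GRCm38 92542223 to 92608428, plus strand) and shares 346 exonic bases with *Gm38391* on the opposite strand, which averaged 0.327 and 0.176 CPM.

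*Pcolce* was at 59.4, 62.7 and 56.0 CPM in SHMT2 fl/fl and 14.2, 25.1 and 26.0 CPM in SHMT2 HKO mice. The groups are far apart, and the log2 fold change was -1.45 (SE 0.22, edgeR adjusted p = 0.00302). *Pcolce* lies on chromosome 5 (GRCm38 137605103 to 137613784, minus strand) and shares 112 exonic bases each with *Fbxo24* (0.395 and 0.249 CPM) and *Gm36266* (1.40 and 0.866 CPM). Within the SHMT2 HKO group, mouse 3 had the highest level of every one of the 10 genes except *P4ha3*. The same mouse had the highest summed level of stellate cell markers in its group, 291 CPM against 167 and 221 CPM.

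The order of levels per length differed between genotypes. In SHMT2 fl/fl livers *Loxl1* led with a mean of 19.7 RPKM, followed by *Pcolce* (15.5), *P4ha1* (5.73), *Loxl2* (3.64), *Loxl3* (2.68), *P4ha2* (2.06), *Plod2* (1.37), *Lox* (1.03), *Loxl4* (0.565) and *P4ha3* (0.258 RPKM). The values of the single mice overlapped between *Loxl3* and *P4ha2* and between *Loxl4* and *P4ha3*, and all other neighbours in this order were separated. In SHMT2 HKO livers *Pcolce* (5.70), *P4ha1* (5.05) and *Loxl1* (3.58 RPKM) came first, each overlapping with the next, and *P4ha2* (2.31), *Loxl2* (1.79), *Loxl3* (1.251), *Plod2* (0.494), *Loxl4* (0.394), *Lox* (0.329) and *P4ha3* (0.0761 RPKM) followed, where only *Loxl3* from *Plod2* and *Lox* from *P4ha3* were separated.

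The substrates of these enzymes fell as well. All 11 collagen and elastin genes examined were lower in SHMT2 HKO livers, led by the elastin gene *Eln* (log2 fold change -2.78, SE 0.34, edgeR adjusted p = 0.00170), and then by *Col6a3* (-2.24), *Col6a2* (-1.92) and *Col5a2* (-1.88). At least 10 of the 11 passed whichever mouse was left out, and 9 passed when only genes without any count were removed. Each enzyme was therefore also expressed as a percentage of the summed CPM of *Col1a1*, *Col1a2* and *Col3a1* in the same liver. *Loxl1* came to 5.90%, 6.28% and 5.95% of these collagens in SHMT2 fl/fl and 4.91%, 4.34% and 3.002% in SHMT2 HKO mice. It was thus the 1 gene of the 10 whose ratio to collagen was lower in all SHMT2 HKO mice, by 0.60 on the log2 scale, where 1.31% of all genes tested showed this. With *Col1a1* alone as the denominator the difference was -0.44 and the groups overlapped (p = 0.3, exact permutation test).

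Of the other genes, 4 had a higher ratio to collagen in every SHMT2 HKO mouse and 5 overlapped. As 79.8% of all genes tested had a higher ratio without overlap, 4 of 10 is below the background of the table. In SHMT2 fl/fl and SHMT2 HKO mice *P4ha2* was at 1.19% ± 0.243 and 5.30% ± 2.14 of collagen and *P4ha1* at 2.19% ± 0.0839 and 7.42% ± 2.37 (n = 3 each). *Loxl2* (1.83% ± 0.112 and 3.32% ± 0.768) and *Loxl4* (0.222% ± 0.0649 and 0.603% ± 0.330) were the others. None of these 4 kept a higher ratio without overlap when the summed stellate cell markers *Lrat*, *Reln*, *Des* and *Pdgfrb* replaced collagen as the denominator. These markers had log2 fold changes of 0.03, 0.97, -0.60 and -1.46, and the larger marker sum given above was not used. With this denominator *P4ha1* (log2 difference 0.08) and *P4ha2* (0.47) overlapped, *Loxl4* (-0.28) turned negative with overlap and *Loxl2* (-0.80) was lower without overlap. *Lox*, *Loxl3*, *P4ha3*, *Plod2* and *Pcolce* overlapped, with log2 differences of 0.18, 0.78, 0.18, 0.35 and 0.42, which were -1.45, -0.85, -1.45, -1.28 and -1.21 against stellate cell markers. For the 5 ratios without overlap the exact permutation test gave p = 0.1 and an adjusted value of 0.2 over 10 ratios, so no ratio could pass in this design.

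**Figure D3:**
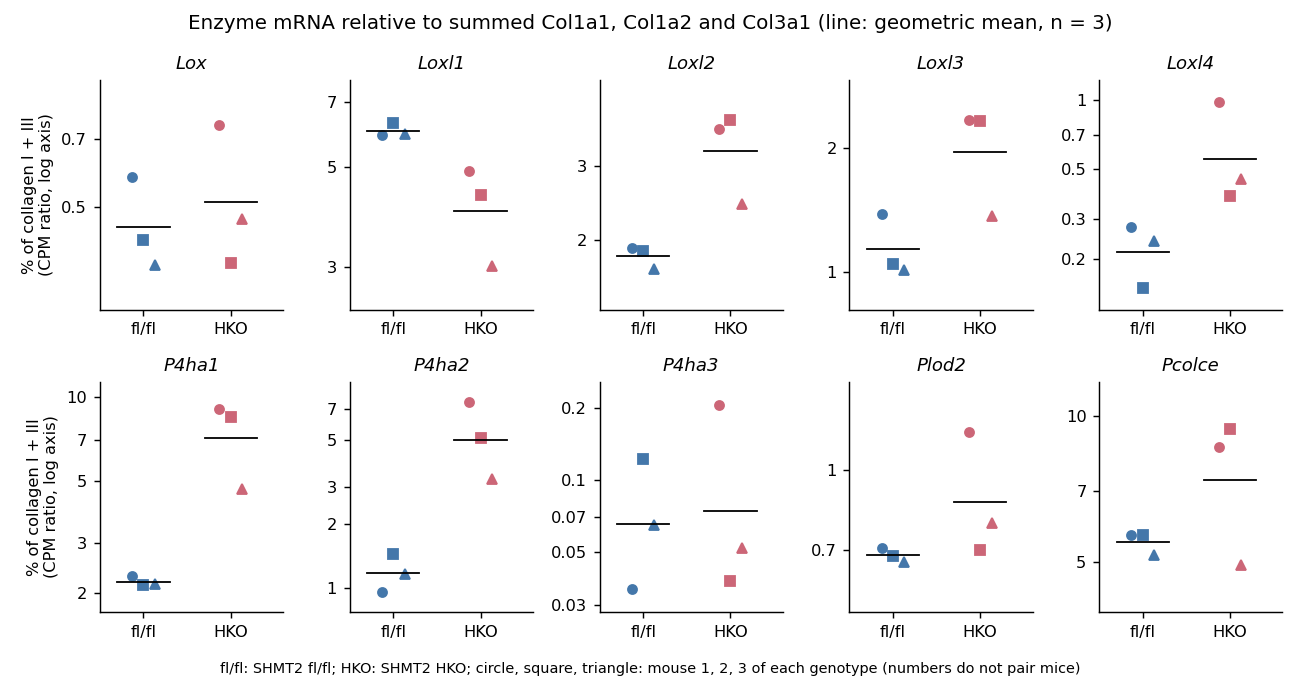
Level of each enzyme gene as a percentage of the summed CPM of *Col1a1*, *Col1a2* and *Col3a1* in the same mouse (log axis), by genotype. Points are mice and lines are geometric means of 3 mice. *Loxl1* goes from 5.90% to 6.28% in SHMT2 fl/fl to 3.002% to 4.91% in SHMT2 HKO mice, whereas *P4ha1* and *P4ha2* are higher in every SHMT2 HKO mouse.

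Of 42 other genes of collagen biosynthesis listed, 38 were tested, of which 13 were lower, 10 higher and 15 did not pass, with a median log2 fold change of -0.25. The 10 higher calls depended on the scaling: 6 were called higher with upper-quartile scaling, and 0 without TMM or with ERCC scaling. With SHMT2 fl/fl mouse 1, 2 or 3 or SHMT2 HKO mouse 2 left out, 3, 4, 2 and 4 were called higher.

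The list named for prolyl 3-hydroxylation, which modifies single prolines of the chain, had 4 of 6 genes lower. These were *P3h4* (-1.55), *P3h3* (-1.53), the cartilage-associated scaffold *Crtap* (-1.31) and *P3h2* (-0.86). *P3h1* was at -0.08 and *Ppib* at 0.32 on the log2 scale. Not every gene of this list need act in that step, so the count does not describe the reaction itself. Among chaperones of procollagen 3 of 4 were lower, *Fkbp10* (-1.80), *Sparc* (-1.30) and the collagen-specific chaperone *Serpinh1* (-1.02), with *Fkbp14* at 0.17. Partners of the lysyl oxidases and regulators of fibril growth had 5 of 8 lower. These were the fibril-binding proteoglycans *Fmod* (-2.59), *Lum* (-2.38) and *Bgn* (-1.59), and *Efemp2* (-1.38) and *Fbln5* (-1.10), which bring lysyl oxidases to elastin. *Dcn* (-0.60) and *Postn* (-0.13) did not pass, and *Fn1*, which hepatocytes secrete in quantity, was higher at 0.59.

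The shared beta subunit *P4hb*, which is also the general protein disulfide isomerase, was higher, at 1280.2, 1250.2 and 1359.6 CPM in SHMT2 fl/fl and 1953, 2118 and 1897 CPM in SHMT2 HKO mice (log2 fold change 0.62, SE 0.16, edgeR adjusted p = 0.0212), with 0.19 without TMM and -0.11 with ERCC scaling. Of the lysyl hydroxylases and galactosyltransferases *Plod1* was higher (0.67, turning to -0.03 with ERCC scaling), and *Plod3* (0.09), *Colgalt1* (-0.11) and *Colgalt2* (-0.68) did not pass. *Plod1* and *Plod2*, which modify helix and telopeptide lysines, thus had calls in opposite directions with TMM scaling. The export genes for large procollagen cargo, which also serve general secretion, had 4 of 5 higher, *Mia2* (0.74), *Sec23a* (0.68), *Sec24d* (0.56) and *Mia3* (0.40), with *Sec24d* and *Mia3* turning to -0.09 and -0.31 with ERCC scaling and *Klhl12* (0.19) not passing.

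The propeptide-removing enzymes were split, with *Adamts2*, which cuts the N-terminal propeptide, lower (-1.56, SE 0.28, edgeR adjusted p = 0.00640) and *Bmp1*, the C-proteinase that Pcolce enhances, higher (0.57, SE 0.14, edgeR adjusted p = 0.0206), though -0.20 with ERCC scaling. *Bmp1* was at 90.2, 107 and 94.3 CPM in SHMT2 fl/fl and 156, 155 and 121 CPM in SHMT2 HKO mice, whereas *Pcolce* was lower in all 3. *Adamts14* (-0.94), *Adamts3* (-0.47) and *Pcolce2* (0.57) did not pass, and *Tll1*, *Tll2*, *Mep1a* and *Mep1b* were too low to test. Of the copper genes, the transporter *Slc31a1* (0.73) and the chaperone *Atox1* (0.51) were higher with TMM scaling and at -0.06 and -0.29 with ERCC scaling, and *Atp7a* (-0.37), which loads copper onto secreted enzymes such as the lysyl oxidases, did not pass. The transglutaminases *Tgm2* (-0.42) and *F13a1* (0.47), which crosslink matrix proteins by another reaction, did not pass.

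**Figure D4:**
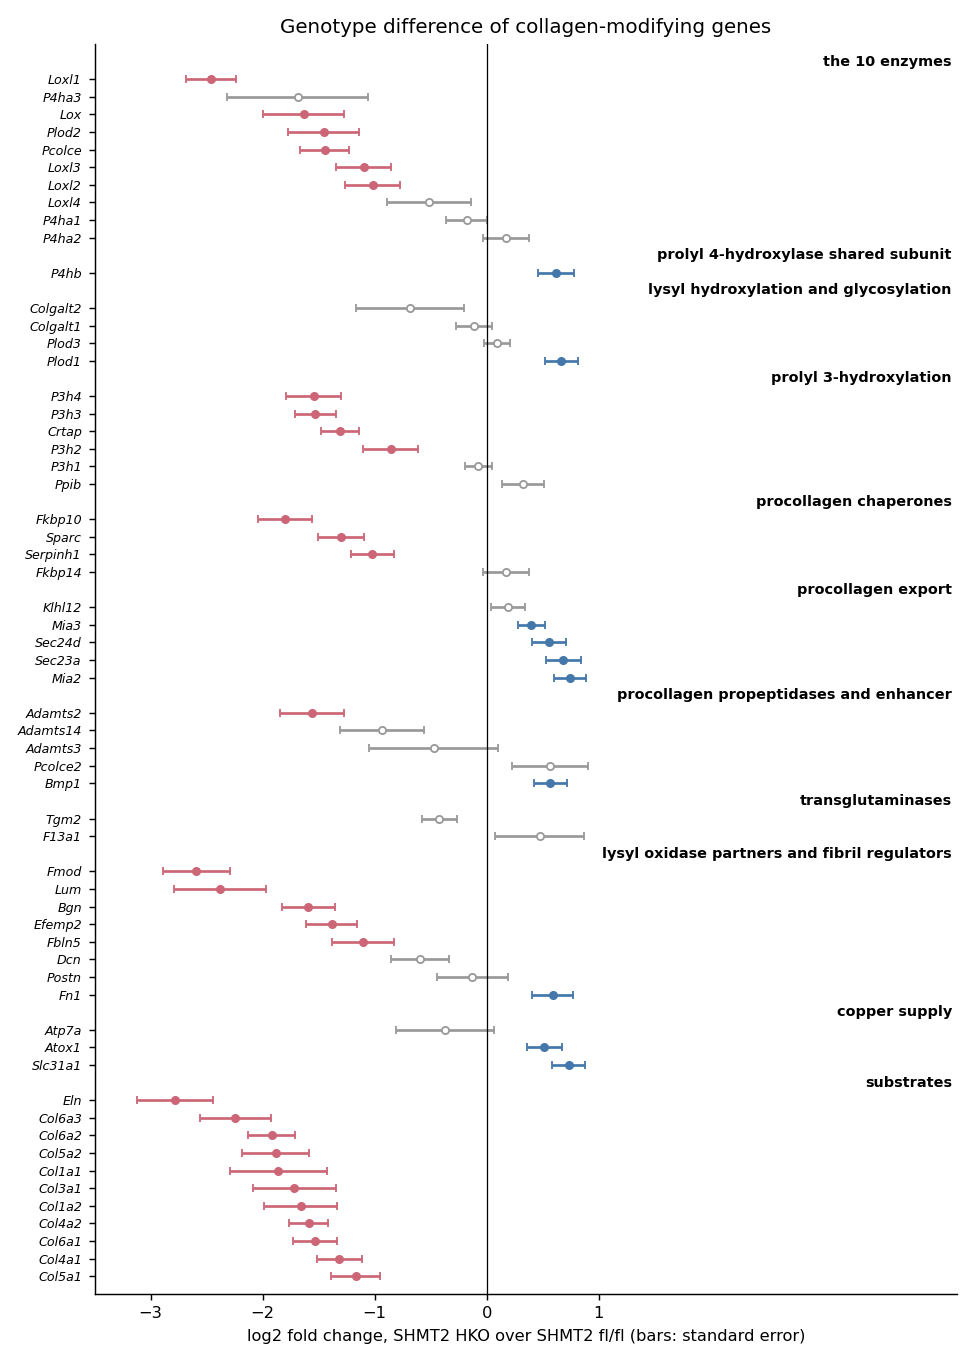
Log2 fold change of SHMT2 HKO over SHMT2 fl/fl (horizontal axis; bars are the standard error of the edgeR fit) for the 10 enzymes, the tested genes of the other collagen biosynthesis steps and the substrates. Filled points passed the test (red lower, blue higher) and open grey points did not. All 11 substrates lie left of 0, and the export genes lie right of it with TMM scaling.

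*P4ha1*, *P4ha2* and *Plod2* are among the known targets of the hypoxia-inducible factors (HIF), and *Lox* and *Plod2* are among the genes that respond to TGF-beta. The 10 enzyme genes were not assigned in full to either group. A gene named under only 1 group, such as *Lox*, may belong to the other too. The enzyme genes were not sorted by these groups, and no link to either was tested. Of 16 other HIF targets, 5 were higher, *Pdk1* (1.72), *Bnip3* (0.81), *Ldha* (0.75), *Pgk1* (0.69) and *Vegfa* (0.57), and 1 was lower, *Ndrg1* (-1.42), while 10 did not pass. *Pdk1* and *Bnip3* kept a positive sign with ERCC scaling (1.005 and 0.17), and *Ldha*, *Pgk1* and *Vegfa* did not. The split of 5 higher and 1 lower became 4 higher and 4 lower with upper-quartile scaling, 1 higher and 4 lower without TMM, and 0 higher and 2 lower with ERCC scaling. The number called higher fell to 2, 2 and 1 without SHMT2 fl/fl mouse 1, 2 or 3, and to 3 and 1 without SHMT2 HKO mouse 1 or 2. Of 7 TGF-beta targets, 4 were lower, *Ankrd1* (-3.996), *Tgfbi* (-1.08), *Smad7* (-1.02) and *Ccn1* (-0.91), and 0 were higher. Without SHMT2 fl/fl mouse 3 only 2 of these targets passed. The median log2 fold change was 0.19 over the HIF targets and -1.02 over the TGF-beta targets.

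The RefSeq promoter table (GRCm38.p6, 250 bases before to 50 after each start site) held 5 of the 10 genes, *Loxl4*, *P4ha1*, *P4ha2*, *P4ha3* and *Pcolce*. The windows of *P4ha1* and *P4ha2*, which did not pass the test, and of *Pcolce*, which fell, are printed with their HIF core letters marked. Those of *Loxl4* and *P4ha3*, which did not pass either, are not printed, and their matches are given below. Capitals mark ACGTG and GCGTG on either strand, so that CACGT and CACGC are the same letters read on the other strand, and each line runs 5' to 3' along the gene.
P4ha1: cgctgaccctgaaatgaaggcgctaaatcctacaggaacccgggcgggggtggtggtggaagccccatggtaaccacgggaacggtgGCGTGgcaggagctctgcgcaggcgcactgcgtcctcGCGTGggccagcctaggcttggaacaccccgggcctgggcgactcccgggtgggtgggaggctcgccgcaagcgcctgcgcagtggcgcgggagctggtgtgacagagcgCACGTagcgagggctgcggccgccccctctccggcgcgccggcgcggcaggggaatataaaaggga
P4ha2: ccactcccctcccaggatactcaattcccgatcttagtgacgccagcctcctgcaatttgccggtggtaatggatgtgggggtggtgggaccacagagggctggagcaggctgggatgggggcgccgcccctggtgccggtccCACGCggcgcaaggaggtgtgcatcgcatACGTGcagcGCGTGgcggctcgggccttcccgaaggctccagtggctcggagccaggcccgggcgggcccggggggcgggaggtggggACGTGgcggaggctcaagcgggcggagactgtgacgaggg
Pcolce: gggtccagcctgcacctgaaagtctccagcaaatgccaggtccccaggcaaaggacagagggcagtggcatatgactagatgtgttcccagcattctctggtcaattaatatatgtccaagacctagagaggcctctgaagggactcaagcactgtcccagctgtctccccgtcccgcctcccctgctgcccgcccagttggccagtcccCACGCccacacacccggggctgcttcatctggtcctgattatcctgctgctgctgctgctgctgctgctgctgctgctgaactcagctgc
The windows are chr10:59323046-59323345 (plus strand) for *P4ha1*, chr11:54100674-54100973 (plus strand) for *P4ha2* and chr5:137611355-137611654 (minus strand) for *Pcolce*.

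*P4ha1* held 1 ACGTG and 2 GCGTG, *P4ha2* 2 of each, *Pcolce* and *Loxl4* 1 GCGTG each, and *P4ha3* neither. Both cores contain the dinucleotide CG, which the windows held in unlike numbers. There were 32 in *P4ha1*, 26 in *P4ha2*, 5 in *Pcolce*, 32 in *Loxl4* and 30 in *P4ha3*. The match counts were not compared with the genotype differences. Of 32851 promoters in the table, 19.6% held ACGTG and 32.4% held GCGTG. The letters of AP-1 (TGANTCA, in 7.81% of promoters), SMAD (CAGACA, 21.04%), TEAD (GGAATG, 14.7%) and the CCAAT box (CCAAT, 37.4%) were searched on both strands too, as were the GC box (GGGCGG, 35.7%), which all 5 windows held, and the TATA box (TATAAA, 13.6%), found only in *P4ha1*, after the start site. A match is a description of the letters and not evidence of binding.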

How the data were processed

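The authors prepared liver RNA with the NEBNext Ultra kit and sequenced it paired-end on a HiSeq instrument. Per the submitters' processing notes and the methods, reads were trimmed with Trimmomatic 0.36, mapped to GRCm38 with the ERCC sequences by STAR 2.5.2b, and unique gene hits were counted (featureCounts of Subread 1.5.2). The deposited values are these raw counts per gene, without normalization. Use of strand and treatment of overlapping genes are not given in the sources used here. Columns were mapped to genotypes by their labels.

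Symbols, positions and exonic lengths came from GENCODE M21 (GRCm38). The 92 ERCC RNAs entered neither library sizes nor tests. Low counts were removed by filterByExpr (edgeR 4.0.16, R 4.3.3), and the rest were scaled by TMM and tested between genotypes by the quasi-likelihood test (two-sided, robust dispersions), with Benjamini-Hochberg adjustment over 16089 genes. All adjusted p-values of single genes are from this test unless another is named. The standard error is the absolute log2 fold change divided by the square root of F. Ratios to collagen (with 0.5 added to a count of 0) and family shares were compared by exact permutation tests over mice. The code was tested on simulated data. Libraries are taken as separate mice from their labels, and no source says more, so p-values measure the spread between these samples. Library sizes set the precision, as given with the depths, and the detection limit of 3 counts covers counting error only. Stretches of 50 bases were compared between all transcripts of GENCODE M21.

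The enzyme genes, the gene lists, the tests and the alternatives were chosen with earlier results of these data known. Named are the 10 enzymes, *Shmt2*, the genes of the collagen biosynthesis lists, and, in the lists of substrates, HIF and TGF-beta targets and cell type markers, the 4 genes with the largest change among those with an adjusted p under 0.05 and no overlap, and genes behind a count of 5 or fewer. Alternatives were DESeq2 1.42.0, voom of limma 3.58.1, other scalings and filters, non-robust dispersions, the replicate number as a block, leaving out each mouse, and other denominators.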

Additional observations from a re-analysis of the deposited data

How the results depend on the processing

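The number of enzyme genes called ranged from 3 (without SHMT2 fl/fl mouse 1) to 6 when single mice were left out, and was 6 or 7 under every other alternative. The number of other biosynthesis genes called lower ranged from 11 to 16 over all alternatives. *Loxl1*, *Plod2* and *Pcolce* passed under all 15 alternatives, with adjusted p up to 0.00631, 0.0446 and 0.0153. With single mice left out, the log2 fold change of *P4ha1* ranged from -0.348 to 0.0154, changing sign without SHMT2 HKO mouse 1, and that of *P4ha2* from -0.000405 to 0.350, changing sign without SHMT2 HKO mouse 3. *P4ha2* also changed sign without TMM (-0.232) and with ERCC scaling (-0.433). *P4ha3* has no value where at least 10 counts were required in every sample. With the stellate cell markers *Lrat*, *Reln*, *Des* and *Pdgfrb* as denominator, the log2 ratio was negative for 8 of the 10 genes. These were *Loxl1* (-2.22), which was negative before, and *Lox* (-1.45), *P4ha3* (-1.45), *Plod2* (-1.28), *Pcolce* (-1.21), *Loxl3* (-0.847), *Loxl2* (-0.798) and *Loxl4* (-0.275), which had been positive. The log2 ratio stayed positive for *P4ha1* (0.0751) and *P4ha2* (0.467). The causes were not tested. Genes called lower were 56.9% of 4663 calls over all genes, against 90.1% of 5457 without TMM, 96.3% of 2866 with ERCC scaling and 67.5% of 4500 with upper-quartile scaling.

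Same-numbered mice did not deviate together (correlations of -0.0186, 0.0737 and -0.114), so the replicate numbers were not taken as pairs. With the number as a block, 6 enzyme genes were called lower, 12 other biosynthesis genes lower and 5 higher (10 without the block), and 3584 genes in all. By pairs of equal number, 7 ratios to collagen moved one way in all 3 pairs, against 5 without overlap. Without single mice 5 to 7 ratios did not overlap. With *Col1a1* alone 6 did not overlap, all higher (*Loxl2*, *Loxl3*, *Loxl4*, *P4ha1*, *P4ha2*, *Plod2*). With the same stellate cell markers as above it was 6 again, but all lower (*Lox*, *Loxl1*, *Loxl2*, *Loxl3*, *Plod2*, *Pcolce*). With these markers *Loxl1* alone of the original 5 stayed without overlap in the same direction. With *Col1a1* alone it was the reverse, as *Loxl1* overlapped and *Loxl2*, *Loxl4*, *P4ha1* and *P4ha2* stayed higher without overlap. None of the original 5 thus held with both denominators.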
